A study of Mus musculus with 12 samples.

Results

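The growth hormone and IGF axis was represented on the panel by *Igf1*, *Igfbp3*, *Igf1r*, *Ghr*, *Prlr* and *Irs1*, which are 6 of its 770 gene probes and were chosen by name. They were measured in 12 samples of total RNA, 3 biological replicates in each of 4 groups, on the NanoString® nCounter Mouse PanCancer Pathways panel, which counts barcoded probes hybridised to each mRNA. Both lines go back to 1 mouse liver tumour, a hepatocellular carcinoma (HCC) induced by delivering 2 oncogenes to hepatocytes through the tail vein. AKT/NRAS holds both oncogenes, floxed myristoylated AKT and *NRAS* G12V. In AKT Cre/NRAS the floxed AKT was excised by Cre, so *NRAS* G12V is the remaining one. Each line received a *Dusp4* siRNA pool (siRNA) or a negative control pool (SCR), and the comparisons ask what *Dusp4* silencing and the loss of AKT do to the transcriptome. All 4 groups thus carry *NRAS* G12V, and a difference between the lines is a difference between 1 tumour-derived line and its own derivative.

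Growth hormone, made by the pituitary, binds GHR on hepatocytes, and the JAK2 kinase bound to GHR then activates STAT5, which induces *Igf1* in liver. IGF1 circulates bound to IGFBP3 and acts through IGF1R, a receptor tyrosine kinase that docks IRS1 and feeds the PI3K/AKT and RAS/ERK cascades. The prolactin receptor PRLR is a close relative of GHR and also signals through JAK2 and STAT5. The liver is the main source of circulating IGF1, while adult hepatocytes carry little IGF1R and tumour cells often carry more.

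In these data *Ghr* and *Igfbp3* separated the 2 lines, *Igf1r* and *Irs1* were higher after *Dusp4* siRNA in AKT Cre/NRAS cells, and *Igf1* and *Prlr* were not detected above the floor in any library. *Ghr* was about 12.4-fold and *Igfbp3* about 20.4-fold higher in AKT Cre/NRAS than in AKT/NRAS under SCR, and neither passed the test for a response to the siRNA in either line. *Igf1r* was 1.77-fold higher after siRNA in AKT Cre/NRAS and stood at 1.01-fold in AKT/NRAS. *Irs1* followed the same pattern at counts close to the floor. Both responses depend on the processing, with *Igf1r* called under 8 and *Irs1* under 4 of 9 ways of scaling the libraries. An ordinary linear model per gene called neither. In the siRNA comparison of AKT Cre/NRAS 45.9% of all tested genes were called. The log2 ratio of *Igf1r* to another gene within a library differed there by 0.09 for *Polr2a*, 0.65 for *Igfbp3*, 0.78 for *Ghr* and 1.44 for *Rpl19*.

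The 250 bases upstream of the transcript starts that RefSeq lists for these genes (build GRCm38.p6) were set beside the values, and 3 of these promoters are shown because their genes carry the results. The 120 bases that end at the start site are given 5′ to 3′ on the strand of the gene, with matches to GGGCGG (the letters of a GC box) or TATATA (the letters of a TATA box) in capitals. *Igf1r* lies on the plus strand at chr7:67952137-67952256, *Igfbp3* on the minus strand at chr11:7213924-7214043 and *Ghr* on the minus strand at chr15:3583353-3583472, upstream of the outermost of the 2 *Ghr* starts listed. The genes themselves span chr7:67952257-68233668 (*Igf1r*), chr11:7206086-7215498 (*Igfbp3*, whose listed start lies inside that span), chr15:3317755-3583352 (*Ghr*) and chr1:82233105-82291439 (*Irs1*).
Igf1r: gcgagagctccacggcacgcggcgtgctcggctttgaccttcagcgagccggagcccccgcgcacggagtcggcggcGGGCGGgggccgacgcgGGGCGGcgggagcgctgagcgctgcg
Igfbp3: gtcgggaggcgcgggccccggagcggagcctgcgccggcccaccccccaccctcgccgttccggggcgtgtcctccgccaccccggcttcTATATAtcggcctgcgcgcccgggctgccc
Ghr: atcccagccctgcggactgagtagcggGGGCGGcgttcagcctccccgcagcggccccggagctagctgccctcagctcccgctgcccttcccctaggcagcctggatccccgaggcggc

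*Igf1r* had 77.6% G and C in its 250 upstream bases, more than 97.6% of the 32851 mouse promoters in the table, with GGGCGG starting 43 and 26 bases before the start site (-43 and -26). *Igfbp3* had 73.2% and carried TATATA at -30, and *Irs1* had 72.4%, with GGGCGG at -227 and -216 and the E-box CACGTG at -115. The outer *Ghr* promoter had 65.6%, with GGGCGG at -93 and, on the opposite strand, at -174, and the inner one had 52%, with overlapping TATATA matches at -186 and -184 and the AP-1 letters TGANTCA at -34. *Igf1* had 52.8% and TGANTCA at -37. The 3 listed *Prlr* starts had 48%, 44.8% and 32.8%, with GTAAACA (a FOXO motif) at -215 on the opposite strand and TTCNNNGAA (the core of a STAT5 site) at -110 of the middle start and TGANTCA at -20 of the last. CCGGAAG, an ETS motif, matched none of the 6 genes. Both strands were searched, and the letters occur in 32.7% (GGGCGG), 5.25% (TATATA), 6.02% (CACGTG), 6.75% (TGANTCA), 3.17% (GTAAACA), 7.02% (TTCNNNGAA) and 6.91% (CCGGAAG) of all upstream windows, so each match is a description of the sequence and not a site of binding.

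The deposited values are probe counts scaled to the positive controls, with 20 as the lowest value given. They were scaled further here to the 15 reference genes that geNorm, a ranking by pairwise variation, kept over all 12 libraries. On that scale, called normalized counts, 27.1 is the common floor below which libraries cannot be compared. These genes were not all stable among the AKT Cre/NRAS libraries, where geNorm ranked *Ppia*, *Hprt* and *Rpl19* 18, 19 and 20 and did not keep them. With references chosen within that siRNA comparison the median log2 difference of all tested genes was 0.02 in place of 0.23. Recovered counts totalled 641790 to 1081646 per library, and 252 to 293 genes stood at the deposited floor. *Dusp4* was lower after siRNA in both lines (log2 difference -1.73 in AKT/NRAS, limma adjusted p = 1.13e-06, and -0.45 in AKT Cre/NRAS, limma adjusted p = 0.0178). The smaller difference in AKT Cre/NRAS was called under 6 of 9 scalings (-0.81 to 0.00098), and it lost its call without siRNA replicate 1 (-0.47), siRNA replicate 3 (-0.41) or SCR replicate 2 (-0.41). *Akt1* was lower in AKT Cre/NRAS (-5.68 under SCR, limma adjusted p = 1.35e-09). The AKT Cre/NRAS SCR libraries stand apart, with a log2 ratio of the ribosomal *Rpl19* to the polymerase gene *Polr2a* of 5.48 to 6.88, against 4.72 to 5.03 after siRNA and 3.81 to 3.92 in AKT/NRAS. The hepatocyte marker *Cebpa* was above the floor in every library, as were the progenitor or biliary markers *Spp1* and *Sox9*. *Prom1* was above it only in the AKT Cre/NRAS libraries. The endothelial marker *Kdr*, the leukocyte marker *Csf1r* and 3 of 5 fibroblast markers (*Col1a2*, *Col3a1*, *Pdgfrb*) were at the floor in all 12. Of the others *Flt1* was higher in AKT/NRAS, *Col1a1* had group means of 30.6 to 36.8, and *Pdgfra* had a mean of 317 in AKT Cre/NRAS SCR against 55.7 in AKT/NRAS SCR. The *Pdgfra* level moved with the line, as *Ghr* and *Igfbp3* did, and the part of these markers in the results was not tested.

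*Igf1*, which encodes the ligand of the axis, stood at the deposited floor of 20 in all 12 libraries, as did *Prlr*. Neither gene could be tested and no fold is given. The highest negative control reached 23.3 normalized counts, under the common floor, and a level below that floor was not detectable at this depth. *Prl*, the prolactin gene and the only other ligand measured, was at the floor in all 12 as well. The ligands measured were thus below detection in both lines, with and without *Dusp4* siRNA. The 4 genes that passed the filter were *Igfbp3*, *Ghr*, *Igf1r* and *Irs1*.

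**Figure D1:**
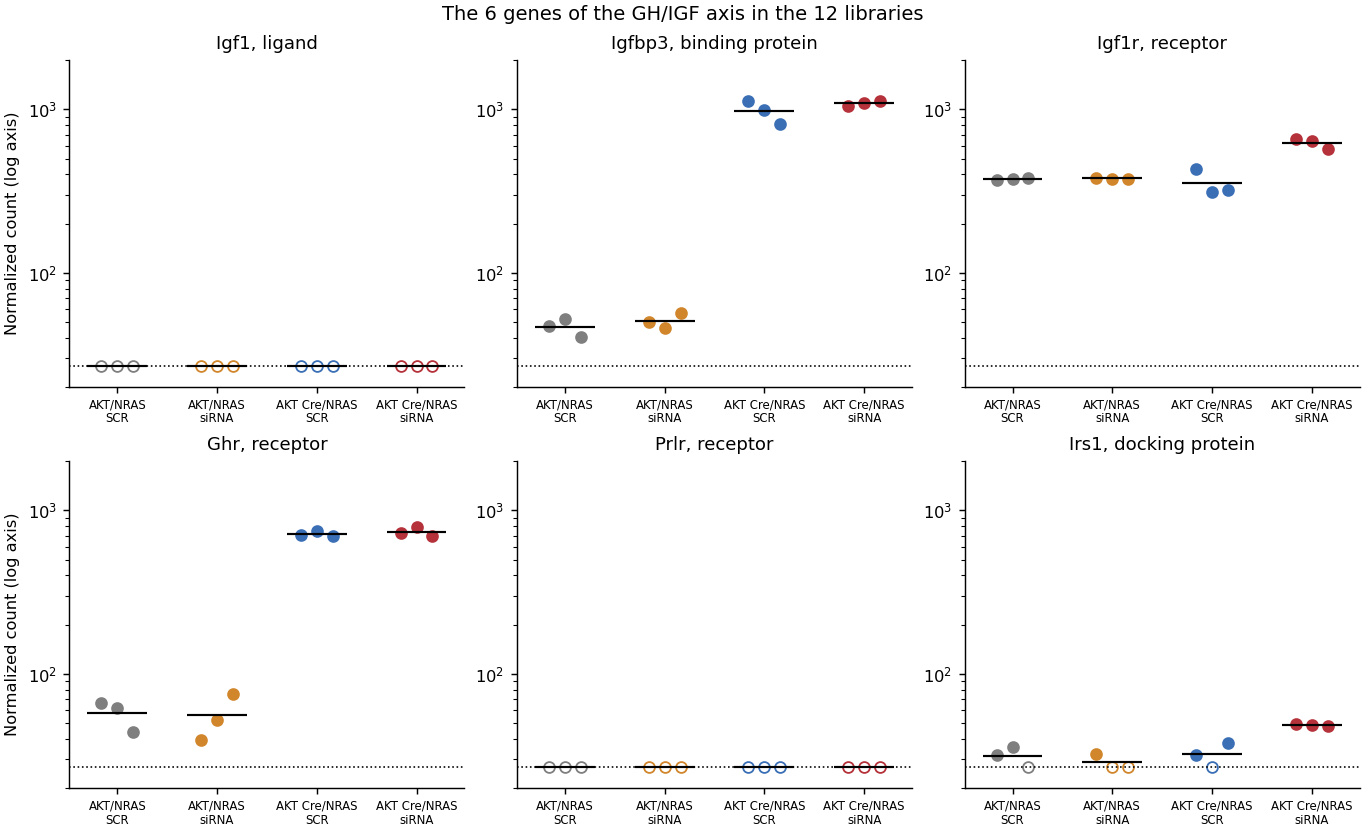
Normalized counts (log axis) of the 6 genes in the 12 libraries, with 3 points per group, open points at the common floor (dotted line, 27.1) and a bar at the group mean. *Igfbp3* and *Ghr* sit between 39.6 and 75.5 in every AKT/NRAS library and between 692 and 1123 in every AKT Cre/NRAS library, *Igf1r* stands above the other groups in AKT Cre/NRAS siRNA, and *Igf1* and *Prlr* lie on the floor.

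*Igfbp3* encodes the main carrier of IGF1 in serum, which prolongs its half-life and limits its access to the receptor. Its normalized counts were 47.3, 52.2 and 40.6 in AKT/NRAS SCR (replicates 1 to 3) and 50.0, 45.8 and 56.6 in AKT/NRAS siRNA. They were 1123, 989.5 and 812 in AKT Cre/NRAS SCR and 1051, 1100.3 and 1119.6 in AKT Cre/NRAS siRNA. All 6 AKT Cre/NRAS libraries lay far above all 6 AKT/NRAS libraries, and within a line the siRNA and SCR groups overlapped. In AKT/NRAS these values rest on 35 to 66 counted barcodes per library, so that counting error alone is large there. The group means were 46.7 ± 5.81 in AKT/NRAS SCR and 975 ± 156 in AKT Cre/NRAS SCR (SD, n = 3 each). The line difference under SCR was 4.35 on the log2 scale (SE 0.15, limma adjusted p = 4.40e-08), a fold of 20.4 with a 95% confidence interval of 16.1 to 25.8. Under siRNA it was 4.40 (SE 0.09, limma adjusted p = 1.21e-08), 21.1-fold with an interval of 18.3 to 24.4.

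*Igfbp3* had the 3rd highest line difference of 515 tested genes under SCR and the 4th highest of 522 under siRNA. It was called under all 9 scalings in both comparisons, with log2 differences of 3.83 to 4.85 under SCR and 4.22 to 4.50 under siRNA. After *Dusp4* siRNA the log2 difference was 0.17 in AKT Cre/NRAS (limma adjusted p = 0.243) and 0.12 in AKT/NRAS (limma adjusted p = 0.543). The 95% interval in AKT Cre/NRAS ran from 0.945-fold to 1.35-fold, and it holds for this scaling only. Over the 9 scalings the log2 difference in AKT Cre/NRAS ran from -0.18 to 0.63 and was called under 0 of them, so the interval does not bound the response across scalings. That comparison passed only without AKT Cre/NRAS SCR replicate 1 (0.28, limma adjusted p = 0.0321), the SCR library with the highest *Igfbp3*.

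*Ghr* encodes the growth hormone receptor, which is characteristic of differentiated hepatocytes. Its normalized counts were 66.6, 61.5 and 44.1 in AKT/NRAS SCR and 39.6, 52.3 and 75.5 in AKT/NRAS siRNA. They were 704, 749 and 692 in AKT Cre/NRAS SCR and 729.7, 791 and 701 in AKT Cre/NRAS siRNA. As with *Igfbp3*, the lines did not overlap and the siRNA and SCR groups of each line did. The AKT/NRAS values come from 34 to 88 counted barcodes and their spread was wide, with 55.8 ± 18.2 after siRNA and 57.4 ± 11.8 after SCR (SD, n = 3 each). In AKT Cre/NRAS the spread was narrow, with 741 ± 46.1 after siRNA and 715 ± 29.6 after SCR (SD, n = 3 each). Each library is a bulk extract of a culture, and more cells with the transcript cannot be told apart from more transcript per cell.

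The line difference of *Ghr* was 3.64 under SCR (SE 0.15, limma adjusted p = 1.69e-07), which is 12.4-fold with a 95% interval of 9.73 to 15.9. Under siRNA it was 3.75 (SE 0.21, limma adjusted p = 2.54e-06), 13.5-fold with an interval of 9.52 to 19.1. These were the 7th highest of 515 and the 9th highest of 522 tested genes, and both were called under all 9 scalings (3.12 to 4.14 under SCR, 3.58 to 3.85 under siRNA). After *Dusp4* siRNA the log2 difference was 0.05 in AKT Cre/NRAS (limma adjusted p = 0.681) and -0.07 in AKT/NRAS (limma adjusted p = 0.910). In AKT Cre/NRAS the sign depended on the scaling (-0.31 to 0.50), and re-centring each library on its median called *Ghr* lower after siRNA (-0.31). The difference in AKT/NRAS was likewise of either sign over the scalings (-0.10 to 0.26), and it turned to 0.15 without siRNA replicate 1 and 0.05 without SCR replicate 1.

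*Igf1r* encodes the receptor for IGF1, which carries the growth and survival signal of the axis. Its normalized counts were 368, 376 and 379 in AKT/NRAS SCR and 380.4, 376 and 377 in AKT/NRAS siRNA. They were 433, 312 and 321 in AKT Cre/NRAS SCR and 656, 639 and 575 in AKT Cre/NRAS siRNA. The AKT/NRAS libraries were nearly level, the AKT Cre/NRAS SCR libraries spread around them, and all 3 AKT Cre/NRAS siRNA libraries lay above the other 9. The mean rose from 355 ± 67.6 after SCR to 624 ± 42.6 after siRNA in AKT Cre/NRAS (SD, n = 3 each), from 288 to 460 counted barcodes after SCR and 588 to 667 after siRNA. The log2 difference was 0.82 (SE 0.13, limma adjusted p = 0.00329), 1.77-fold with a 95% interval of 1.44 to 2.17.

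Of the 503 tested genes *Igf1r* had the 7th highest siRNA response in AKT Cre/NRAS, and it exceeded the panel median of 0.23 by 0.59. It was positive under all 9 scalings (0.47 to 1.28) and called under 8 of them. With the values as deposited it was not called (0.74, limma adjusted p = 0.303), nor with an ordinary linear model per gene (adjusted p = 0.0646). Leaving out any 1 of the 6 libraries kept the call, with values of 0.74 to 0.97.

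In AKT/NRAS the siRNA response of *Igf1r* was 0.01 (SE 0.05, limma adjusted p = 0.910), with a 95% interval of 0.936-fold to 1.09-fold. The responses of the lines differed by 0.81 (SE 0.15, interaction term of limma, adjusted p = 0.00307), and this was called under 7 of 8 scalings, the exception being the values as deposited (0.39, limma adjusted p = 0.565). Between the lines *Igf1r* differed by -0.09 under SCR (SE 0.13, limma adjusted p = 0.546), where its sign depended on the scaling (-0.61 to 0.41). Without AKT Cre/NRAS SCR replicate 1, the library nearest to the siRNA group, it was called lower in AKT Cre/NRAS (-0.24, limma adjusted p = 0.0205). Under siRNA it was higher in AKT Cre/NRAS by 0.72 (SE 0.06, limma adjusted p = 1.98e-05), and that call held under all 9 scalings.

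**Figure D2:**
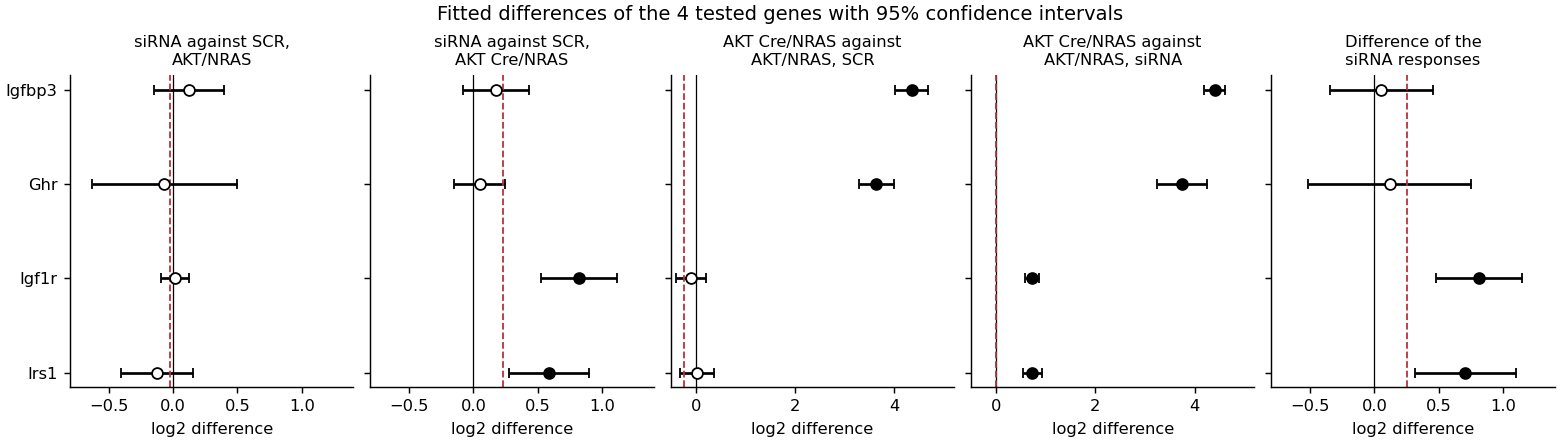
Log2 differences of the 4 tested genes in the 5 comparisons, with 95% confidence intervals from limma and filled points for an adjusted p under 0.05. The dashed line is the median of all genes tested in that comparison, and the line comparisons have a wider axis. *Igfbp3* and *Ghr* stand at 3.64 to 4.40 between the lines, while *Igf1r* (0.82) and *Irs1* (0.59) passed for the siRNA in AKT Cre/NRAS.

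*Irs1* encodes the docking protein that links IGF1R and the insulin receptor to PI3K. Its normalized counts were 31.9, 35.9 and the floor of 27.1 in AKT/NRAS SCR, and 32.6 with the other 2 libraries at the floor in AKT/NRAS siRNA. They were 32.0, the floor and 37.9 in AKT Cre/NRAS SCR and 49.1, 48.4 and 48.3 in AKT Cre/NRAS siRNA. The 3 AKT Cre/NRAS siRNA libraries were above all others, which overlapped among themselves. All these values are small, with at most 56 counted barcodes in a library, so a difference measured against a group that holds floored libraries is only a bound on that scale. The log2 difference after siRNA in AKT Cre/NRAS was 0.59 (SE 0.14, limma adjusted p = 0.00887), which was called under 4 of 9 scalings (0.29 to 0.78). It was not called with no filter on low values (limma adjusted p = 0.0542). In AKT/NRAS it was -0.12 (limma adjusted p = 0.551), and the interaction term was 0.71 (SE 0.18, limma adjusted p = 0.00945), called under 4 of 8 scalings. Between the lines *Irs1* differed by 0.03 under SCR (limma adjusted p = 0.873) and by 0.73 under siRNA (SE 0.08, limma adjusted p = 1.07e-04). Under SCR its sign depended on the scaling (-0.16 to 0.46). With the values as deposited it was called higher in AKT Cre/NRAS under SCR (0.46, limma adjusted p = 0.0124).

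Set against the panel, the share of members called was near that of all genes for the siRNA in AKT Cre/NRAS and for the interaction, and above it only between the lines under siRNA. After siRNA in AKT Cre/NRAS 2 of the 4 tested were called, both higher, beside 45.9% of all tested genes (40.6% higher and 5.37% lower), and in 2 of 4 the groups did not overlap, beside 60.0%. In AKT/NRAS 0 of 4 were called, beside 17.3% of the panel (5.44% higher and 11.9% lower), with 0 of the 4 also at an unadjusted limma p under 0.05. There 0 of 4 had groups without overlap, beside 34.7%, although the values as deposited called 2 (*Igfbp3* 0.45, *Igf1r* 0.35). Between the lines under SCR 2 of 4 were called, both higher in AKT Cre/NRAS, beside 76.9% of the panel (28.9% higher and 48.0% lower), and 2 of 4 did not overlap, beside 79.8%. Under siRNA 4 of 4 were called higher, beside 74.5% (36.6% higher and 37.9% lower), and 4 of 4 did not overlap, beside 76.6%. The interaction was called upwards in 2 of 4, beside 45.3% (40.6% upwards and 4.76% downwards). The split of the panel itself depends on the scaling. Calls were 204 higher and 27 lower for the siRNA in AKT Cre/NRAS and 213 upwards and 25 downwards for the interaction, but 32 higher and 136 lower and 50 upwards and 151 downwards after re-centring. With the values as deposited the 27 higher and 59 lower in AKT/NRAS became 287 and 3, and the 149 and 247 between the lines under SCR became 202 and 99. The 4 tested members passed the filter on low values, so the counts do not describe all 6 members. *Igfbp3* and *Ghr* stood out by the size of the line difference, since the median over all tested genes was -0.22 under SCR.

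Ratios of 2 genes within the same library do not depend on a scaling that multiplies a library by 1 factor, and 7 ratios were compared in 4 comparisons. With 3 libraries against 3 the exact two-sided permutation test cannot go below p = 0.1, and that value is 0.175 after Benjamini-Hochberg adjustment over the 28 comparisons, so none passed. In AKT Cre/NRAS the log2 ratio of *Igf1r* to *Ghr* was -0.70, -1.26 and -1.11 after SCR and -0.15, -0.31 and -0.29 after siRNA. The groups did not overlap and differed by 0.78 (exact permutation p = 0.1). The ratio of *Igf1r* to *Igfbp3* differed by 0.65 in the same direction, again with no overlap (exact permutation p = 0.1). *Igfbp3* to *Ghr* overlapped between siRNA and SCR (0.12, exact permutation p = 0.4).

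*Polr2a*, which encodes the largest subunit of RNA polymerase II, followed *Igf1r* closely in the AKT Cre/NRAS libraries. The log2 ratio of *Igf1r* to *Polr2a* was -1.21 ± 0.03 after SCR and -1.12 ± 0.04 after siRNA in AKT Cre/NRAS (SD, n = 3 each), a difference of 0.09 (exact permutation p = 0.1). *Polr2a* itself was 0.74 higher after siRNA (limma adjusted p = 0.00381). *Polr2a* was a reference gene that geNorm did not keep, and *Rpl19* one that it kept. Relative to *Rpl19* the *Igf1r* difference was 1.44. The size of the *Igf1r* response thus ranged from 0.09 to 1.44 with the gene it is set against, and the part of the *Rpl19* to *Polr2a* difference in it was not tested. Between the lines the *Igf1r* to *Polr2a* ratio was 1.81 higher in AKT Cre/NRAS under SCR, with no overlap (exact permutation p = 0.1), and *Polr2a* itself was 1.90 lower (limma adjusted p = 2.78e-06). There *Igfbp3* was also higher relative to *Ghr*, by 0.72 under SCR and 0.65 under siRNA, with no overlap (exact permutation p = 0.1 for each).

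*Irs1* to *Ghr* was 0.61 higher after siRNA in AKT Cre/NRAS, with no overlap (exact permutation p = 0.1). *Irs1* to *Igf1r* overlapped between siRNA and SCR in both lines, with differences of -0.17 in AKT Cre/NRAS (exact permutation p = 0.7) and -0.25 in AKT/NRAS (exact permutation p = 0.2). In the latter 1 SCR library held *Irs1* at the deposited floor.

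**Figure D3:**
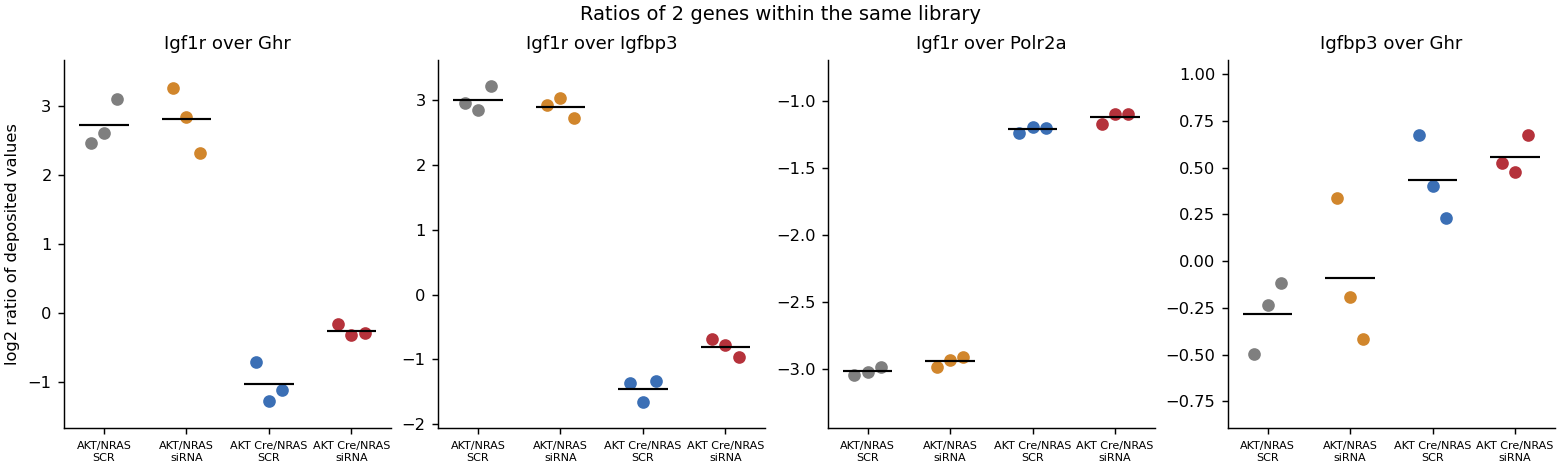
Log2 ratios of the deposited values of 2 genes in the same library, with 3 points per group and a bar at the mean, each plot on its own axis. In AKT Cre/NRAS *Igf1r* was higher after siRNA relative to *Ghr* (by 0.78), *Igfbp3* (by 0.65) and *Polr2a* (by 0.09).

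The scalings show which of these differences rest on the choice of reference. For the siRNA response of AKT Cre/NRAS the median of all tested genes ranged from -0.10 to 0.67 over 9 scalings, and *Igf1r* stayed above it throughout. *Ghr* stayed below it throughout, and *Igfbp3* lay within 0.10 of it. *Irs1* was above it in each of the 9. All scalings but quantile normalization multiply a library by 1 factor, which moves a gene and the median nearly alike. The place of a gene against the median was thus nearly fixed over them, and the 9 are not separate tests of it. The same median ranged from -0.06 to 0.30 for the siRNA in AKT/NRAS, from -0.72 to 0.25 between the lines under SCR and from -0.04 to 0.09 under siRNA, so the line comparison under siRNA depended least on the scaling.

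**Figure D4:**
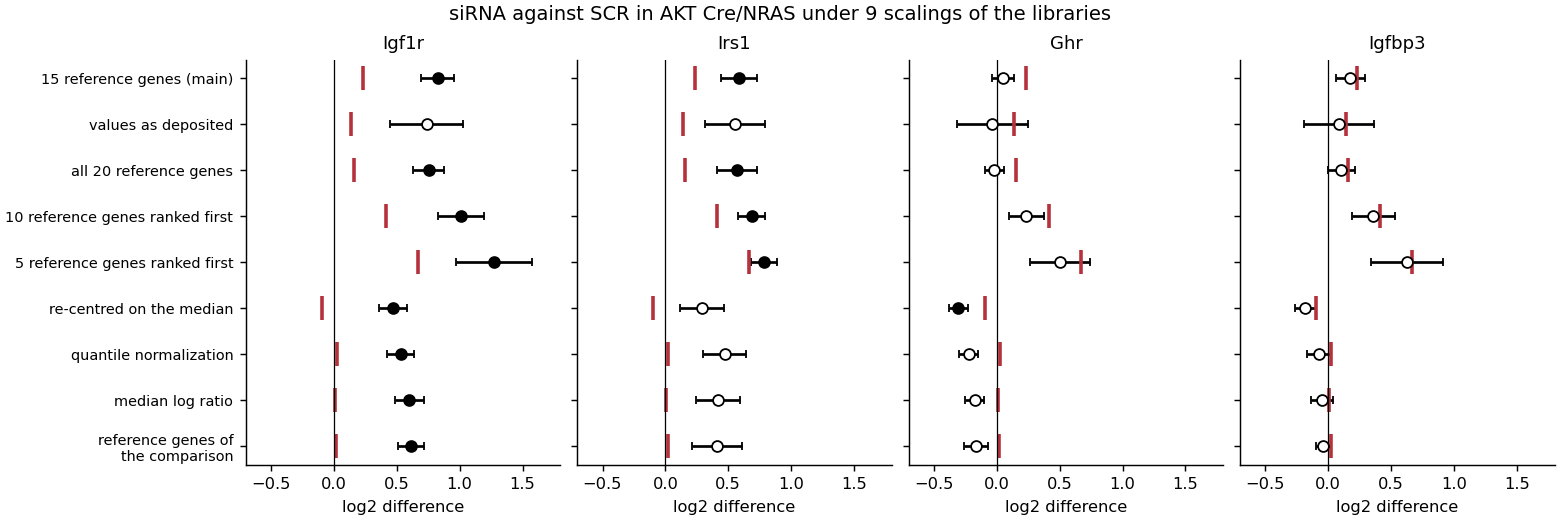
Log2 difference after siRNA in AKT Cre/NRAS of 4 genes under 9 scalings, with the standard error as bars, filled points for a limma adjusted p under 0.05 and a red tick at the median of all tested genes. *Igf1r* ranged from 0.47 to 1.28 and lay to the right of the tick under each scaling, while *Ghr* (-0.31 to 0.50) lay to its left. Scalings other than the quantile one move point and tick nearly alike, so the side of the tick is not tested anew by each.

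Receptors other than the members were represented by *Insr*, the insulin receptor, which forms hybrids with IGF1R. Its means were 252 ± 9.59 in AKT/NRAS SCR, 247 ± 11.2 in AKT/NRAS siRNA, 168 ± 35.3 in AKT Cre/NRAS SCR and 253 ± 24.4 in AKT Cre/NRAS siRNA (SD, n = 3 each). *Insr* was 0.60 higher after siRNA in AKT Cre/NRAS (limma adjusted p = 0.0137, called under 4 of 9 scalings and not without siRNA replicate 1 or 3) and 0.60 lower in AKT Cre/NRAS than in AKT/NRAS under SCR (limma adjusted p = 0.00568). Under siRNA the lines differed by 0.03 in *Insr* (limma adjusted p = 0.742), against 0.72 in *Igf1r*. After siRNA in AKT/NRAS *Insr* did not pass (-0.03, limma adjusted p = 0.809).

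The pathway downstream was described by lists of 48 measured genes other than the members, chosen for their textbook roles. After siRNA in AKT Cre/NRAS 25 of 41 tested rose and 0 fell, with a median of 0.39 beside 0.23 over the panel, where 45.9% were called. That split rests on the scaling, since 0 rose with the values as deposited and 3 rose and 8 fell with each library re-centred on its median. The median of these genes lay above that of the panel by 0.14 to 0.17 under all 9 scalings. A scaling by 1 factor per library leaves this gap nearly unchanged, so the 9 values are not separate observations. The count also rests on single libraries, with 12, 14 and 15 rising without siRNA replicates 1, 2 and 3, 19 without SCR replicate 2, 25 without SCR replicate 3, and 29 rising and 1 falling without SCR replicate 1. On the scale to 15 reference genes all 7 tested docking proteins and adaptors rose (median 0.42; 4 without any 1 siRNA library and 5 without SCR replicate 2), among them *Sos1*, an exchange factor that activates RAS (0.57), and the adaptor *Shc2* (0.55), with *Irs1* counted among the 7. Of 9 genes around JAK2 and STAT5, 6 rose (4 without siRNA replicate 1), including *Stat3* (0.65), *Socs1* (0.65) and *Socs3* (0.54), the last 2 being feedback inhibitors of JAK kinases. In the PI3K/AKT/mTOR branch 9 of 16 rose (5 without siRNA replicate 1 or 2), and those with the smallest p were *Tsc2*, a brake on mTOR (0.82), the PI3K subunit *Pik3r2* (0.58) and the kinase *Gsk3b* (0.58). In the RAS/ERK branch 3 of 9 rose, among them the kinase genes *Mapk3* (0.46) and *Map2k2* (0.38), each called under 3 of 9 scalings. The count of 3 fell to 0 without any 1 siRNA library and to 1 without SCR replicate 2, and it was 2 without SCR replicate 3. Each call is against no change and not against the panel median.

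In AKT/NRAS the same lists had 0 rises and 5 falls among 41 tested genes (median -0.08, beside -0.03 over the panel and 17.3% called). The falls were small, among them *Pik3r1* (-0.30), *Eif4ebp1*, a translation repressor under mTOR (-0.24), and *Akt1* (-0.11), and these 3 had the opposite sign with the values as deposited, under which 19 of 42 rose. Without 1 library the 5 falls became 1 (without SCR replicate 1 or 2), 3 (without siRNA replicate 2 or 3), 4 or 6. *Akt1* kept its call only without SCR replicate 3, and *Eif4ebp1* lost it without SCR replicate 1 or 2. The interaction passed upwards in 29 of 42 genes and downwards in 0 (median 0.47 beside 0.25 over the panel, where 45.3% were called), but with re-centring in 3 upwards and 5 downwards. The smallest adjusted p was that of *Tsc2* (0.91, limma adjusted p = 7.28e-04), and *Insr* (0.63) and *Socs3* (0.70) were also called.

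Between the lines under SCR the pathway genes other than the members were mostly lower in AKT Cre/NRAS, with 28 lower and 5 higher of 41 (median -0.64 beside -0.22, with 48.0% of the panel lower). Lower calls outnumbered higher ones under all 9 scalings, with the values as deposited giving the closest split (14 lower, 7 higher of 43). The 6 called docking proteins and adaptors were all lower, among them *Sos1* (-1.67), *Shc2* (-1.36) and *Grb2* (-1.24). In the PI3K/AKT/mTOR branch 11 of 16 were lower, among them *Akt1*, whose construct was removed, *Mtor* (-2.93) and the PI3K subunit *Pik3r3*. *Pik3r3* was at the common floor in all 6 AKT Cre/NRAS libraries against a mean of 608 in AKT/NRAS SCR, and its -4.44 is a bound for this scaling. In the RAS/ERK branch 5 of 9 were lower, among them *Braf* (-1.12) and *Mapk3* (-1.02), and 0 were higher.

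The genes next to GHR ran both ways between the lines. *Jak2*, the kinase bound to GHR, was 0.76 higher in AKT Cre/NRAS under SCR (limma adjusted p = 2.06e-05, called under 7 of 9 scalings). *Socs2*, which encodes an inhibitor of GHR signalling that growth hormone itself induces in liver, had means of 305 ± 17.9 in AKT/NRAS SCR and 1789 ± 114 in AKT Cre/NRAS SCR (SD, n = 3 each). Its difference of 2.55 (limma adjusted p = 4.23e-08) was called under all 9 scalings (2.03 to 3.05), and it was 2.81 under siRNA. Of the 9 genes of that list 4 were higher (*Jak2*, *Jak3*, *Socs2*, *Socs3*) and 5 lower, beside 28.9% higher and 48.0% lower over the panel. Under siRNA 10 of 42 pathway genes were called above AKT/NRAS and 23 below it (median -0.28 beside -0.00). Over the panel 36.6% were called higher and 37.9% lower there.

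**Figure D5:**
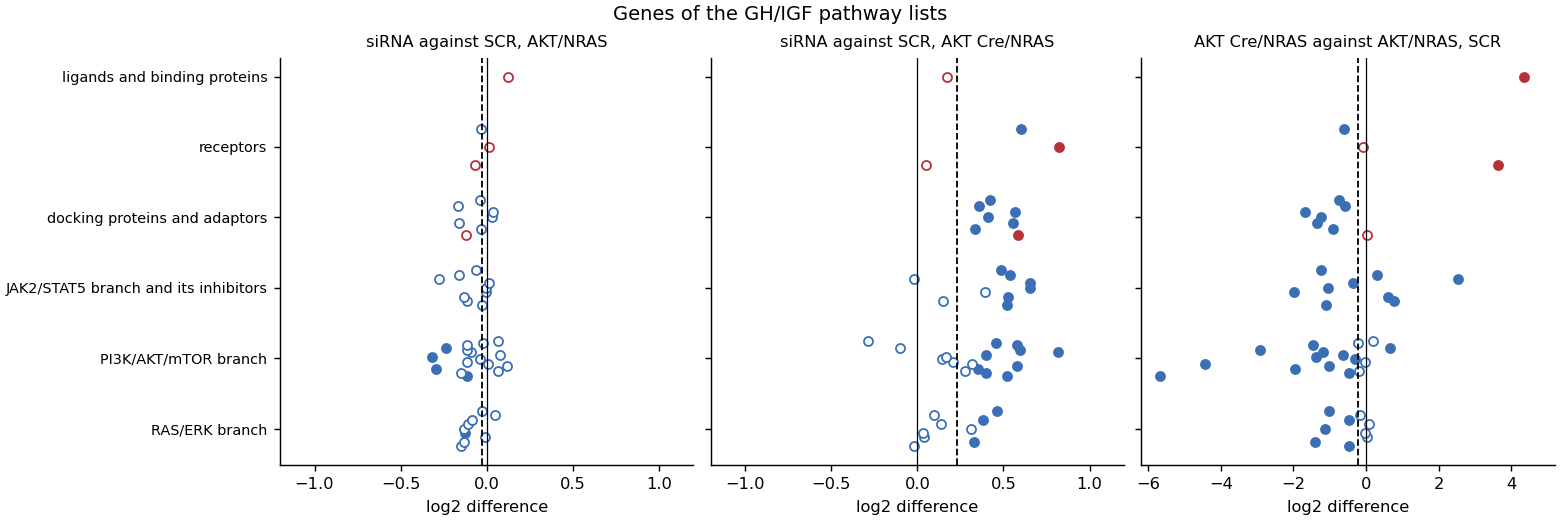
Log2 differences of the genes of 6 pathway lists in 3 comparisons, 1 point per tested gene, red for the members, filled for a limma adjusted p under 0.05, with a dashed line at the median of all tested genes and a wider axis for the line comparison. After siRNA in AKT Cre/NRAS 0 filled points lie left of zero, and between the lines *Igfbp3* (4.35) and *Ghr* (3.64) stand apart from pathway genes that are mostly lower.

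The genes whose pattern over the 12 libraries was most like that of a member were found from the root mean square difference of centred log2 values among 525 genes. For *Ghr* these were *Hmga2* (0.28), *Lifr* (0.30) and *Fst* (0.32), and for *Igfbp3* they were *Etv4* (0.18), *Hmga2* (0.25) and *Wnt10a* (0.37). *Hmga2*, which encodes a DNA-binding architectural protein active in the embryo, had means of 257 in AKT/NRAS SCR and 3544 in AKT Cre/NRAS SCR. For *Igf1r* they were the ephrin *Efna5* (0.12), the NF-κB subunit *Rela* (0.12) and the Notch ligand *Dll1* (0.12). *Efna5* had means of 356, 333, 380.1 and 595 in AKT/NRAS SCR, AKT/NRAS siRNA, AKT Cre/NRAS SCR and AKT Cre/NRAS siRNA, close to the course of *Igf1r*. The 12 points of each gene share their libraries and scaling. For *Irs1* they were *Sufu* (0.14), *Dll1* (0.17) and *Efna5* (0.19).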

How the data were processed

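Total RNA of 12 cultures was hybridised by the authors to the NanoString® Mouse PanCancer Pathways panel and processed in nSolver. For each gene probe the authors deposited a signal, which is a barcode count times a positive control factor (0.827 to 1.27 per sample) with 20 as the lowest value. Values above the floor came back as whole counts within 0.01, but no count model was fitted because floored counts are unknown. Table columns carry run numbers, which the sample labels match to groups. The reference gene step in the methods is not in the deposited values, so it was completed with geNorm, which kept 15 of 20 reference genes over all 12 samples. Scaled values were raised to a common floor (27.1), genes at the floor in every sample compared were dropped, and linear models of log2(value + 1) were run in R 4.3.3 using limma 3.58.1, with an empirical Bayes step that follows the mean, Benjamini-Hochberg adjustment over all genes tested and a threshold of 0.05. Fold changes are on that log2 scale. Only the groups compared entered a fit, and all 12 samples entered the interaction. The model fit alone was tested on simulated data, with independent noise of the same spread in all groups. That simulation held neither the scaling step nor the wider spread of the AKT Cre/NRAS SCR libraries, so it cannot speak to either. Ratios within a library were compared by exact permutation tests (scipy 1.17.1). p values measure the spread between replicates described as biological.

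The members, gene lists and tests were chosen with earlier results of these data known. Within each list and comparison up to 3 called genes with the smallest p are named, together with the 3 genes nearest to each member by root mean square difference. Any others were chosen after their values were seen, and some genes of these lists are not reported here by name. The scaling to the median log ratio was chosen after seeing the data. In the AKT Cre/NRAS siRNA comparison, deviations of samples with the same replicate number correlated at 0.19, 0.10 and 0.18, each highest with its own number. The numbers may thus mark pairs there, but the fits and p values given here are unpaired. Pairing entered only through the replicate block, run as an alternative. In the other comparisons of 2 groups at least 1 correlation was under 0.1. The alternatives were other scalings, filters, pseudocounts, adjustments and models, a replicate block, and leaving out each library in turn.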

Additional observations from a re-analysis of the deposited data

Results flagged for a closer look

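The siRNA responses of the lines differed, by the interaction term of limma, in *Igf1r* (0.81 on the log2 scale), *Irs1* (0.71) and *Dusp4* (1.28). For *Igf1r* and *Irs1* all 3 AKT Cre/NRAS siRNA libraries lay above the SCR libraries of that line, and in AKT/NRAS the groups overlapped. For *Dusp4* the fall was larger in AKT/NRAS. An interaction was called in 45.3% of the tested genes. In AKT Cre/NRAS SCR the log2 *Rpl19* to *Polr2a* ratio was 5.48 to 6.88, above that of the other groups, and its part in these differences was not tested.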

How the results depend on the processing

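Over the alternatives and the libraries left out, 369 values of the members kept direction and call, 39 changed sign, 16 lost a call and 5 gained one. The line differences of *Ghr* and *Igfbp3* and, under siRNA, of *Igf1r* and *Irs1* were called under all 9 scalings. The floor limits *Irs1*, *Igf1* and *Prlr*, and 34 to 88 barcodes limit *Ghr* in AKT/NRAS. Causes were not tested, apart from fewer samples where a library is left out. For the siRNA in AKT Cre/NRAS, 231 genes and 2 members were called. The values as deposited gave 1 and 0, quantile normalization 90 and 1, the median log ratio 150 and 1, reference genes chosen within the comparison 100 and 1, no filter 56 and 1, Benjamini-Yekutieli adjustment 70 and 1, a plain linear model 0 and 0, and a mean of at least 100 left 1 member. Leaving out a library gave 99 to 297 genes and 2 to 3 members, with 99, 121 and 118 without siRNA replicates 1, 2 and 3 and 131 without SCR replicate 2. For the siRNA in AKT/NRAS (86 and 0), the values as deposited gave 290 and 2, a fit over all 4 groups 23 genes, no filter 45, Benjamini-Yekutieli 10, a plain model 26 and leaving out a library 39 to 92 (39 without siRNA replicate 3, 49 and 44 without SCR replicates 1 and 2). Between the lines leaving out a library gave 358 to 413 genes and 2 to 3 members under SCR and 366 to 383 genes under siRNA. For the interaction (238 and 2), the values as deposited gave 32 and 0, Benjamini-Yekutieli 101 and 1, leaving out a library 176 to 307 genes, and re-centring, quantile normalization, the median log ratio and a mean of at least 100 left 1 member. With the replicate number as a block, the pairing of the AKT Cre/NRAS libraries gave 263 genes in place of 231, the other comparisons gave 73, 397, 404 and 240 in place of 86, 396, 389 and 238, and no member call changed. Signs turned as follows. After siRNA in AKT Cre/NRAS, *Ghr* was -0.038 as deposited, -0.021 with 20 reference genes, -0.31 re-centred, -0.22 by quantiles, -0.18 by the median log ratio and -0.16 with references chosen within the comparison, and *Igfbp3* was -0.18, -0.074, -0.052 and -0.041 under the last 4. *Dusp4* was 0.00098 with 5 reference genes. After siRNA in AKT/NRAS the values as deposited gave *Ghr* 0.26, *Irs1* 0.10, *Akt1* 0.22, *Eif4ebp1* 0.10 and *Pik3r1* 0.038, *Igf1r* was -0.023 with 10 reference genes and -0.018 with 5, and *Ghr* ran from -0.31 to 0.15 without 1 library. Between the lines under SCR, *Igf1r* was 0.41 as deposited, 0.081 with 20 reference genes, 0.27 re-centred, 0.24 by quantiles and 0.19 by the median log ratio. *Irs1* was -0.16 with 10 reference genes, -0.14 with 5, -0.15 with those chosen within the comparison and -0.091 to 0.14 without 1 library. In the interaction *Ghr* was -0.30 as deposited, -0.29 re-centred, -0.21 by quantiles, -0.14 by the median log ratio and -0.10 to 0.36 without 1 library, and *Igfbp3* was -0.36, -0.36, -0.21, -0.21 and -0.073 to 0.16, with -0.018 for 20 reference genes.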
